A study of Mus musculus with 12 samples.

Results

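The B4galt genes encode a family of beta-galactosyltransferases of the Golgi. The 7 mouse members, B4galt1 to B4galt7, were followed here among 53392 gene identifiers in 12 RNA-seq libraries of embryonic facial mesenchyme. Polyadenylated RNA came from embryos on a 129S4 background, in 4 groups of 3 libraries. At E13.5, palatal shelf (PS) mesenchyme was taken from Pdgfra+/+ embryos (wild-type) and from PdgfraPI3K/PI3K embryos, which are homozygous for a knock-in allele of the receptor gene Pdgfra. At E11.5, maxillary process (MxP) mesenchyme was taken from Srsf3fl/fl;Wnt1-Cre+/+ embryos, given as the control, and from Srsf3fl/fl;Wnt1-Cre+/Tg embryos, given as the Srsf3 conditional knockout (cKO). Both maxillary groups are homozygous for the floxed allele of Srsf3, a splicing factor gene, and differ in the Wnt1-Cre transgene, which acts in neural crest cells and their descendants and leaves other cells of the tissue with Srsf3. A trypsin step was used to remove the covering ectoderm, but ectoderm markers were present in the palatal libraries, as given below. Whether a library is 1 embryo or a pool is not given in the labels, so p-values measure only the spread between these libraries.

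The members were taken by symbol, and all 7 were measured in all 12 libraries. The family was chosen with measured values of these same libraries in view, and which value led to the choice is not stated. The family was taken to be chosen on the count per TPM of B4galt5 in the maxillary process, described below, which was the only one of 11002 genes past the threshold there. On that reading, every value of a member in the comparison of the maxillary groups is given as a description, with no p, and the comparison of the palatal groups was tested. If palatal values also led to the choice, the p-values of the members there are not independent of it.

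Galactosyltransferases of this family move galactose from UDP-galactose onto a waiting sugar, and the members differ mainly in which sugar they accept. B4galt1, the enzyme that also makes lactose in the mammary gland, and its close relatives B4galt2 and B4galt3 add galactose to N-acetylglucosamine at the ends of N-glycans. B4galt4 acts on sulfated N-acetylglucosamine, as in keratan sulfate. B4galt5 and B4galt6 make lactosylceramide, the common precursor of most glycosphingolipids. B4galt7 adds the first galactose of the linker that ties glycosaminoglycan chains to proteoglycan core proteins. In the developing face, proteoglycans and glycolipids of this kind are part of the matrix and the cell surface of the mesenchyme.

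All members share 1 short stretch of coding sequence that belongs to the catalytic site of these enzymes, and it is printed because it lies in the exon that 1 of the B4galt5 transcripts leaves out. The 24 letters TGGGGNTGGGGNNGNGANGANGAN, in which N is any base, were searched on the sense strand of the annotated transcripts. The letters were read from the members themselves, with N where they differ, so the members hold them by construction. Of 21877 genes with a coding transcript, 7 (0.032%) hold them, and no gene other than the members does. The codons of the motif are in capitals below, with flanking bases in lower case, 5′ to 3′ from the GENCODE M21 transcripts (build GRCm38). The sequence of B4galt6 is not printed.
B4galt1: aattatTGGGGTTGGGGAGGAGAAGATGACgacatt
B4galt2: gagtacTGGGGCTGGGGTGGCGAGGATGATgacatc
B4galt3: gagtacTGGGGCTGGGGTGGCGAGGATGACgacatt
B4galt4: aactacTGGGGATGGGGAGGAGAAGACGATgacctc
B4galt5: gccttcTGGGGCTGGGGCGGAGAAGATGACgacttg
B4galt7: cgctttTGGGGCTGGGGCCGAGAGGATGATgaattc

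The exon with this motif has 123 nt in 6 members, B4galt1 to B4galt6, and 84 nt in B4galt7. It is exon 4 of B4galt1 (chr4:40809679-40809801), exon 6 of B4galt2 (chr4:117877097-117877219), exon 7 of B4galt3 (chr1:171274266-171274388) and exon 5 of B4galt4 (chr16:38763069-38763191). In B4galt5 it is exon 7 of 9, at chr2:167304996-167305118 on the minus strand. Its 123 nt are the length of 41 codons, so a transcript without it stays in frame, although the exon begins and ends inside a codon. Among the annotated transcripts of the family, B4galt4-204 and B4galt5-203 skip it.

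B4galt5 (ENSMUSG00000017929.13, chr2:167298444-167349183, minus strand) has 4 annotated transcripts, and the values of this gene turn on their lengths. B4galt5-201 has 9 exons and 4210 nt and codes for the enzyme. B4galt5-203 has 425 nt and joins the end of exon 6 to exon 8. B4galt5-202 and B4galt5-204 are processed transcripts of 361 nt each, with identical sequences, that begin in a first exon of their own of 53 nt at chr2:167313848-167313900 and chr2:167313803-167313855 and go on through exon 2, exon 3 and part of exon 4. The sequences that set them apart are shown from the annotated transcripts, with exon 7, the bases after the skipped exon and the first exon of their own in capitals.
Exon 7 in B4galt5-201: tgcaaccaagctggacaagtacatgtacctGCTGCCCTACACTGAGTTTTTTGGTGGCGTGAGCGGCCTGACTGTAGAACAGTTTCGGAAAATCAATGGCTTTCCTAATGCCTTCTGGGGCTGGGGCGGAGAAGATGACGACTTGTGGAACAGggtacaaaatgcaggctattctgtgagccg
Exon 6 joined to exon 8 in B4galt5-203: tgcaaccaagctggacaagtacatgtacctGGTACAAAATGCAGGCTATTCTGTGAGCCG
First exon in B4galt5-202 and B4galt5-204: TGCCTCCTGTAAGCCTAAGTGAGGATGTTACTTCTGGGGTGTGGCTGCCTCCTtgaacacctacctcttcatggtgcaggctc

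**Figure D1:**
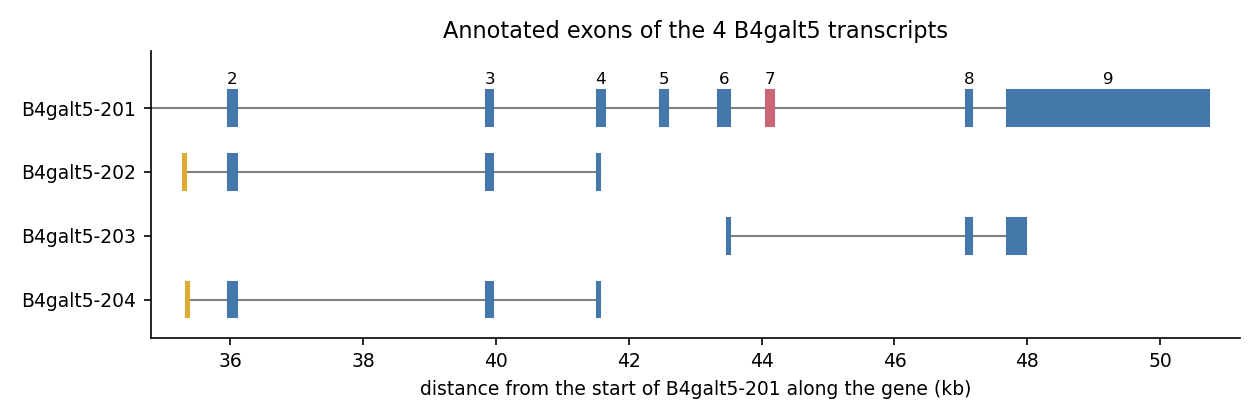
Annotated exons of the 4 B4galt5 transcripts (boxes) against the distance from the start of B4galt5-201 in kb. Exon 7 is red, the first exon of B4galt5-202 and B4galt5-204 is yellow, all other exons are blue, and exon 1 of B4galt5-201 lies off the left edge at 0 kb; exon 7 is missing from B4galt5-203.

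The palatal libraries held 30.5 to 37.4 M estimated counts and the maxillary libraries 15.9 to 27.9 M. No pair of replicates differed by as little as sampling noise. For Srsf3, the 3 controls had 597, 578 and 547 CPM (normalised read count, scaled to library size), and the cKO-labelled ones 468, 669 and 622 CPM. These gene totals overlap and do not show a loss of Srsf3. All 7 markers of facial mesenchyme were found in every group. Their summed TPM (the transcript share of the library, scaled for length) was 2444 to 2908 in the wild-type, 2544 to 2697 in the PI3K libraries, 2063 to 2912 in the controls and 1164 to 2012 in the cKO-labelled libraries. Ectoderm markers summed to 286 to 663 TPM in the palatal libraries, 1.66 to 6.29 TPM in the controls and 7.48 to 12.8 TPM in the cKO-labelled libraries. The palatal libraries thus held ectoderm RNA despite the trypsin step, and its part in the values of the members was not tested.

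All 7 members were expressed in both tissues, at levels of 11.8 to 84.2 TPM. B4galt2, an N-glycan galactosyltransferase, was the highest member in every library. In the wild-type palatal shelf it had 84.1, 84.2 and 79.3 TPM, and in the maxillary controls 57.8, 60.9 and 67.5 TPM. It made up between 25.8% and 34.1% of the summed TPM of the family. B4galt3 came next in each group, with a mean of 44.6 ± 1.47 TPM in the wild-type, 45.5 ± 1.07 in the PI3K libraries, 37.3 ± 2.75 in the controls and 35.5 ± 0.925 in the cKO-labelled libraries (SD, n = 3). B4galt1 was the third by mean in all 4 groups, with 47.7, 31.5 and 36.1 TPM in the wild-type and 20.8, 22.5 and 26.5 TPM in the controls. In the wild-type its range overlapped both that of B4galt3 above it and that of B4galt5 below it, so these neighbours were not told apart there. In the controls B4galt2, B4galt3, B4galt1 and B4galt5 stood in that order with no overlap between neighbours.

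The lower members changed places between groups. B4galt7, the proteoglycan linker enzyme, had a mean of 22.1 ± 1.82 TPM in the wild-type and 25.1 ± 0.910 in the PI3K libraries, against 16.8 ± 3.48 in the controls and 18.2 ± 1.14 in the cKO-labelled libraries (SD, n = 3). B4galt6, which makes lactosylceramide like B4galt5, was the lowest in both palatal groups, at 18.1 ± 1.32 and 15.7 ± 3.58 TPM, where its range overlapped that of B4galt4. In the maxillary process it had 15.9 ± 0.731 and 16.6 ± 1.41 TPM. B4galt4 was the lowest of the 7 in the controls and the fourth in the cKO-labelled libraries, and B4galt5 was the fourth in the controls and the lowest in the cKO-labelled libraries. The summed TPM of the family was 254 ± 14.1 in the wild-type, 242 ± 19.4 in the PI3K libraries, 188 ± 15.4 in the controls and 177 ± 7.26 in the cKO-labelled libraries (SD, n = 3). In bulk tissue, fewer cells of a type and less RNA per cell cannot be told apart.

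**Figure D2:**
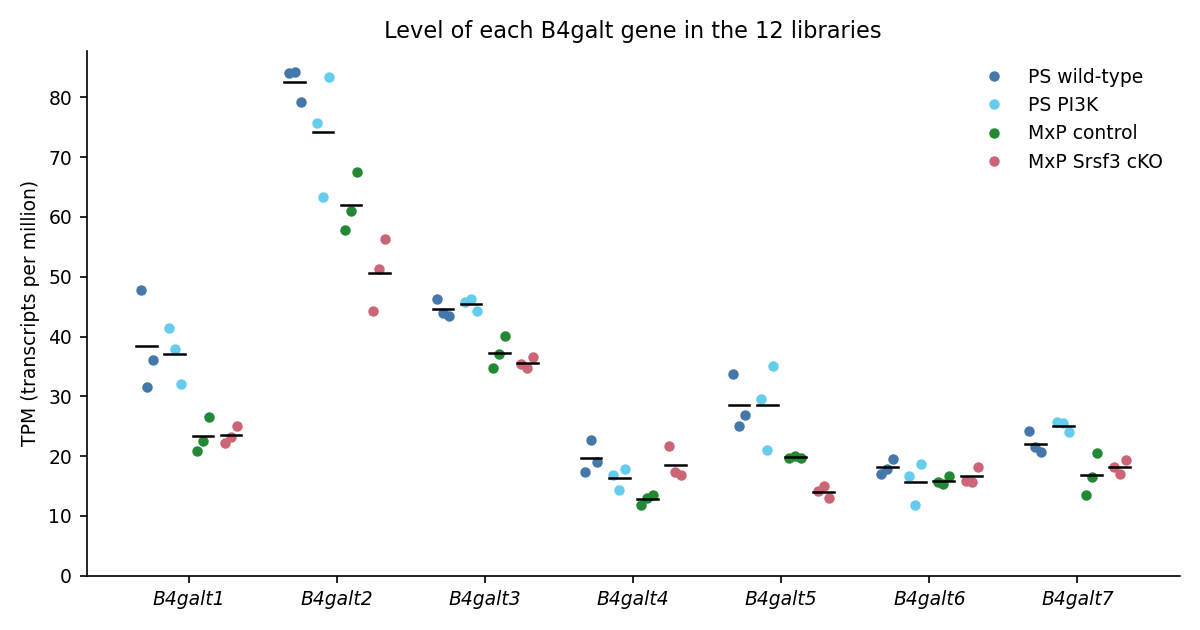
TPM of each B4galt gene in the 12 libraries (points), by group, with the mean of 3 libraries as a black bar. B4galt2 is the highest gene in every group, B4galt4 is higher and B4galt5 lower in the libraries labelled Srsf3 cKO than in the controls.

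Some of these levels share their sequence with other genes. B4galt2 overlaps Ccdc24 on the same strand over 1417 exonic nt, and 26.7% of its 31-base words occur in other genes, so reads of B4galt2 and Ccdc24 are uncertain to assign. B4galt3 overlaps Ppox over 791 exonic nt and B4galt7 overlaps the antisense gene Gm15911 over 110 exonic nt, both on the opposite strand. Whether the counting used strand is not given in the sources used here. The members themselves share almost no sequence word of that length: the largest overlap is 5 words, between B4galt2 and B4galt3.

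The first comparison asked whether the family differed between palatal shelves of PdgfraPI3K/PI3K embryos, whose receptor carries the PI3K allele, and of wild-type embryos. No member passed the test, and the log2 differences were small. B4galt1 to B4galt7 had log2 differences of -0.04, -0.10, 0.04, -0.27, -0.07, -0.21 and 0.18 in counts (PI3K minus wild-type), each with an adjusted p of 0.9997 by edgeR's quasi-likelihood test. By that test 0 of 7 members and 0 of 16525 genes (0%) passed a false discovery rate (FDR) of 0.05. Before adjustment, 354 genes but 0 members had p under 0.05, and DESeq2 called 4 of 27533 genes and 0 members. The median log2 difference of the members was -0.07, beside -0.0076 over all genes.

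B4galt4, the enzyme of sulfated chains, had the largest of these differences. It had 20.5, 26.0 and 21.8 CPM in the wild-type and 19.7, 16.7 and 20.0 CPM in the PI3K libraries. All 3 PI3K libraries lay below all 3 wild-type libraries, as did, in either direction, the groups of 6.23% of the 16525 genes. The difference of -0.27 had a 95% interval of -0.59 to 0.04. B4galt5 had 56.5, 45.1 and 49.1 CPM in the wild-type and 58.5, 34.6 and 50.5 CPM in the PI3K libraries, so the PI3K libraries lay on both sides of the wild-type, with a 95% interval of -0.52 to 0.39. B4galt6 had 56.8, 58.9 and 63.9 CPM against 55.5, 39.7 and 60.5 CPM, and the second PI3K library was the lowest for B4galt2, B4galt4, B4galt5 and B4galt6 alike. B4galt3 was the most narrowly bounded together with B4galt2, with 95% intervals of -0.17 to 0.26 and -0.30 to 0.10. The signs of B4galt1 and B4galt5 depended on single libraries. Without wild-type library 1 their differences were 0.17 and 0.03, without PI3K library 3 that of B4galt1 was 0.08, and without PI3K library 2 that of B4galt5 was 0.12. Markers of skeletal muscle summed to 4.60 to 54.3 TPM in the wild-type and 36.3 to 201 TPM in the PI3K libraries (6 of 6 markers found), and their part in these values was not tested.

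The second comparison set the maxillary processes labelled Srsf3 cKO against their controls. In counts, B4galt4 was higher and B4galt2 lower in all 3 cKO-labelled libraries than in any control. B4galt4 had 15.3, 15.3 and 15.2 CPM in the controls and 27.8, 20.7 and 21.5 CPM in the cKO-labelled libraries, a log2 difference of 0.61 ± 0.14 (SE). The controls were nearly equal and the first cKO-labelled library was the highest; without it the difference was 0.47. B4galt2 had 79.8, 88.6 and 89.6 CPM against 59.8, 73.3 and 72.8 CPM, a log2 difference of -0.33 ± 0.11 (SE). B4galt6 had 55.0, 54.4 and 55.2 CPM against 57.1, 56.6 and 64.5 CPM, which also do not overlap and differ by 0.11 ± 0.089 (SE). With 2 members higher and 1 lower, 3 of 7 had groups that did not overlap, beside 18.1% of 14254 genes in either direction.

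The other 4 members overlapped between the maxillary groups. B4galt1 differed by 0.07 ± 0.099, B4galt3 by -0.04 ± 0.086, B4galt5 by 0.15 ± 0.11 and B4galt7 by 0.02 ± 0.13 (log2 difference in counts ± SE). The median of the 7 was 0.07, beside 0.0041 over all genes. By edgeR, 0 of 7 members were among the 12 of 14254 genes (0.0842%) past FDR 0.05. By DESeq2 1 of 7 was, B4galt4, among 376 of 23499 genes. Nothing is read from these counts of members, because this comparison is taken to have led to the choice of the family. The libraries also differed in markers of cell types and regions. Periocular mesenchyme markers summed to 14.1 to 33.6 TPM in the controls and 53.4 to 183 TPM in the cKO-labelled libraries (5 of 5 found). Endothelial markers summed to 134 to 146 TPM and 178 to 343 TPM (6 of 6 found). The sums of the facial mesenchyme and ectoderm markers given above did not overlap between these groups either, nor did those of forebrain neuroepithelium, with 12.5 to 76.6 TPM in the controls, where Six3 and Sox1 were at 0, and 6.09 to 12.04 TPM in the cKO-labelled libraries. The part of these cells in the differences of the members was not tested.

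**Figure D3:**
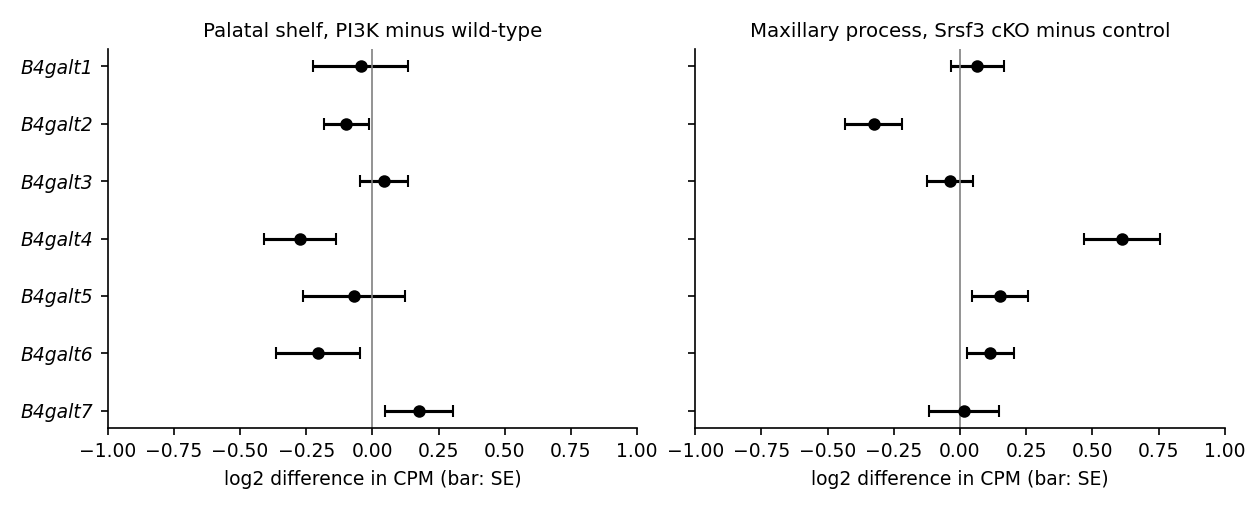
Log2 difference in counts of each B4galt gene (points) with its standard error (bars), for PI3K minus wild-type in the palatal shelf (left) and Srsf3 cKO minus control in the maxillary process (right). B4galt4 lies at -0.27 on the left and 0.61 on the right; B4galt2 is the lowest on the right, at -0.33.

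B4galt5, the lactosylceramide synthase, moved in opposite directions on the 2 scales in which the same libraries were deposited. Its normalised count was 32.8, 34.2 and 29.96 CPM in the controls and 36.2, 38.5 and 33.0 CPM in the cKO-labelled libraries. Its TPM was 19.7, 20.1 and 19.7 in the controls, against 14.1, 15.0 and 13.0 with the cKO label. The counts therefore overlapped with a log2 difference of 0.15, whereas all TPM values of the cKO-labelled libraries lay below all controls, with a difference of -0.47 on the log2(TPM + 1) scale and -0.50 on the log2(TPM + 0.1) scale. For the other 6 members the differences on these scales had the same sign.

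The count and the TPM of a gene differ by the length assigned to its RNA, so count per TPM measures which of a gene's transcripts the reads were assigned to. In each library, genes with a single annotated transcript (469 in all, 386 to 428 of them in the fit of a library) gave a straight line of count per TPM against annotated length. The line returned their lengths with a median error of 8.71e-06% to 1.98e-05%. The TPM of such a gene is computed with its annotated length. The small error therefore shows only that these lengths match those of the quantification, and not that the length of RNA was measured. For the same reason B4galt6, with 1 annotated transcript of 5808 nt, had 5808 nt on this line in all 12 libraries. B4galt1 had 3983 nt, the length of B4galt1-201, in all 6 maxillary libraries and 3940 to 3983 nt in the palatal libraries, which leaves B4galt1-202 (1413 nt) between 0% and 1.67% of its TPM.

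For B4galt5 the mean length was 2856, 2912 and 2798 nt in the maxillary controls and 4210 nt in each of the 3 cKO-labelled libraries. The latter is the length of B4galt5-201, so the deposited values assign nothing to a shorter transcript in those libraries. In the controls a mean near 2855 ± 56.9 nt (SD, n = 3) means that some reads were assigned to a shorter annotated transcript. If that short RNA had the 361 nt of B4galt5-202 and B4galt5-204, it was 35.3%, 33.8% and 36.8% of the TPM of the gene. If it had the 425 nt of B4galt5-203, it was 35.8%, 34.3% and 37.3%. These shares rest on the annotated lengths. B4galt5-203 is annotated with 39 of the 188 nt of exon 6 and 284 of the 3040 nt of exon 9. Whether the RNA in the tissue has these ends was not tested. At the same counts, a longer RNA would be a smaller share of TPM. The long transcript alone had 12.7, 13.3 and 12.4 TPM in the controls at a short length of 361 nt, and 14.1, 15.0 and 13.0 TPM in the cKO-labelled libraries. These values overlapped, with means of 12.8 and 14.0 TPM. In the deposited assignment, and at this assumed length, the lower TPM of the gene thus lay in the short RNA. The overlap does not show that the level of the long transcript was the same.

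The depth behind that short RNA is small. A share of 35.3% of TPM stands for 11.1 of the 526 estimated counts of the gene in the first control, since a short transcript yields few reads, and for 11.4 and 14.8 counts in the other controls. At 425 nt the numbers are 15.6, 16.04 and 20.7 counts, or 2.72% to 3.12% of the count of the gene. In the cKO-labelled libraries the estimate was 0 in all 3, which is how the authors' quantification assigned the reads and not a tally of reads seen. Taken as a count, 0 allows up to 3 counts, and this floor of 3 counts per library allows a short share of up to 9.94%, 6.86% and 11.49% of TPM at 361 nt and 7.40%, 5.06% and 8.57% at 425 nt. These limits cover counting error only and not the error of the assignment. The gene totals do not say which short transcript the reads came from. Of the 31-base words of B4galt5-203, 29 of 395 are absent from B4galt5-201, all across the junction of exons 6 and 8 shown above, and of B4galt5-202 and B4galt5-204 53 of 331 each. Reads outside these words are shared with the long transcript.

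**Figure D4:**
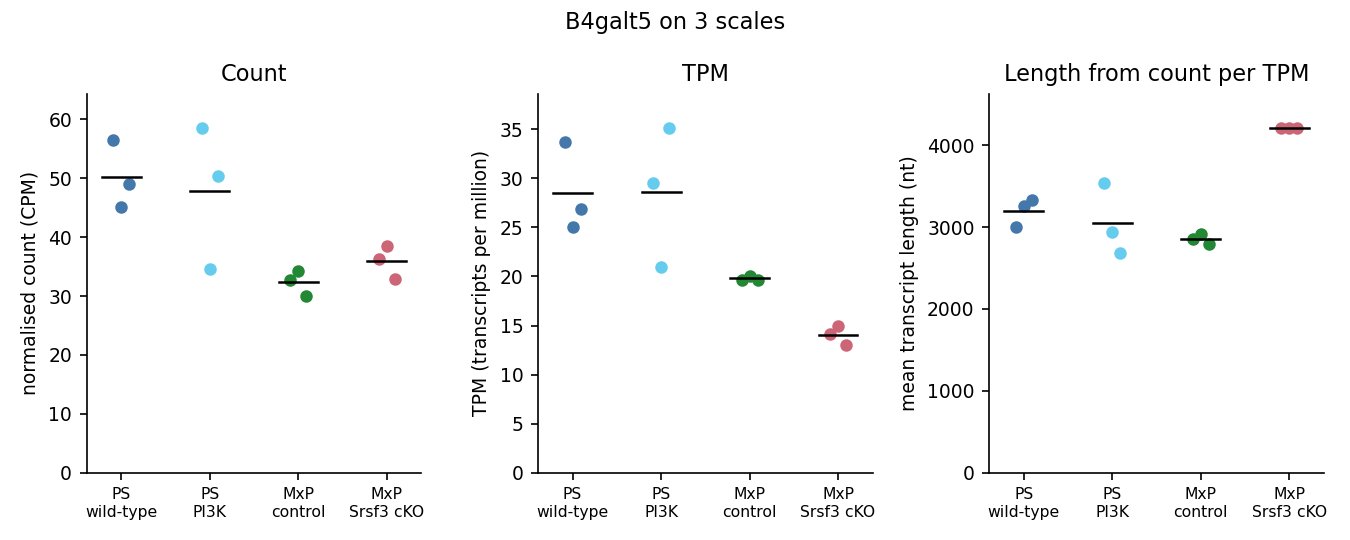
B4galt5 in the 12 libraries (points, with the mean of 3 as a bar) as normalised count in CPM, as TPM and as mean transcript length in nt from count per TPM. The libraries labelled Srsf3 cKO overlap the controls in counts, lie below them in TPM (13.0 to 15.0 against 19.7 to 20.1) and all have 4210 nt.

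In the palatal shelf B4galt5 had the widest spread of this measure. Its mean length was 3005, 3252 and 3332 nt in the wild-type and 3534, 2934 and 2688 nt in the PI3K libraries. At 361 nt the short RNA was 31.4%, 24.9% and 22.9% of TPM in the wild-type and 17.6%, 33.2% and 39.6% in the PI3K libraries, which lay on both sides of the wild-type. Behind these shares stood 17.2 to 55.4 estimated counts per library. The maxillary controls, at 33.8% to 36.8%, lay within the range of the PI3K libraries, and no palatal library was at 0. The log2 difference in count per TPM was -0.076 (PI3K minus wild-type), with a 95% interval of -0.37 to 0.21 and an adjusted p of 0.9979 by limma.

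No member passed the test of count per TPM in the palatal shelf either. The log2 differences of the other 6 members ran from -0.0013 for B4galt7 to 0.063 for B4galt2, with adjusted p-values of 0.9979 to 0.9991 by limma. In that test 0 of 7 members passed, 0 of them at an unadjusted p under 0.05, and 1 of 12907 genes (0.00775%) did, Pdgfra itself. No member had groups that did not overlap, beside 6.36% of the genes. B4galt1, B4galt4 and B4galt6 were the most tightly bounded, with 95% intervals of -0.024 to 0.038, -0.021 to 0.030 and -0.024 to 0.035. For B4galt2, which has 7 annotated transcripts of 396 to 4093 nt, the interval was -0.072 to 0.20, and for B4galt7 -0.14 to 0.14.

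In the maxillary process the difference of B4galt5 in count per TPM was 0.60 ± 0.017 (SE, log2, cKO minus control), the only one of 11002 genes (0.00909%) past FDR 0.05 by limma and the value taken to have led to the choice of the family. In size it was number 23 of 11002. The SE measures only the spread between libraries, and all cKO-labelled libraries sat at the same 4210 nt. The short RNA of the controls rested on 11.1 to 14.8 estimated counts at 361 nt. The error of assigning so few counts was not estimated, so the SE can understate the uncertainty. The difference was between 0.59 and 0.62 in the 11 other settings tried, but the gene was not past the threshold without centring on the median gene, with the replicate number as a block, or without control 1, cKO-labelled library 2 or cKO-labelled library 3. B4galt7, with 4 transcripts of 806 to 2195 nt, had the next largest difference of the family, -0.15 ± 0.048 (SE). Its mean length was 2066, 2001 and 1880 nt in the controls and 1844, 1800 and 1758 nt in the cKO-labelled libraries, with no overlap. B4galt6 did not overlap either, at a difference of 0.0075. With 1 annotated transcript it has 5808 nt in every library by construction. Its difference therefore lies in the scale on which the libraries were centred. With B4galt5 and B4galt6 higher and B4galt7 lower, 3 of 7 members had groups apart, beside 11.8% of the genes. B4galt1, B4galt2, B4galt3 and B4galt4 overlapped, with differences of 0.0073, -0.074, -0.013 and 0.025.

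**Figure D5:**
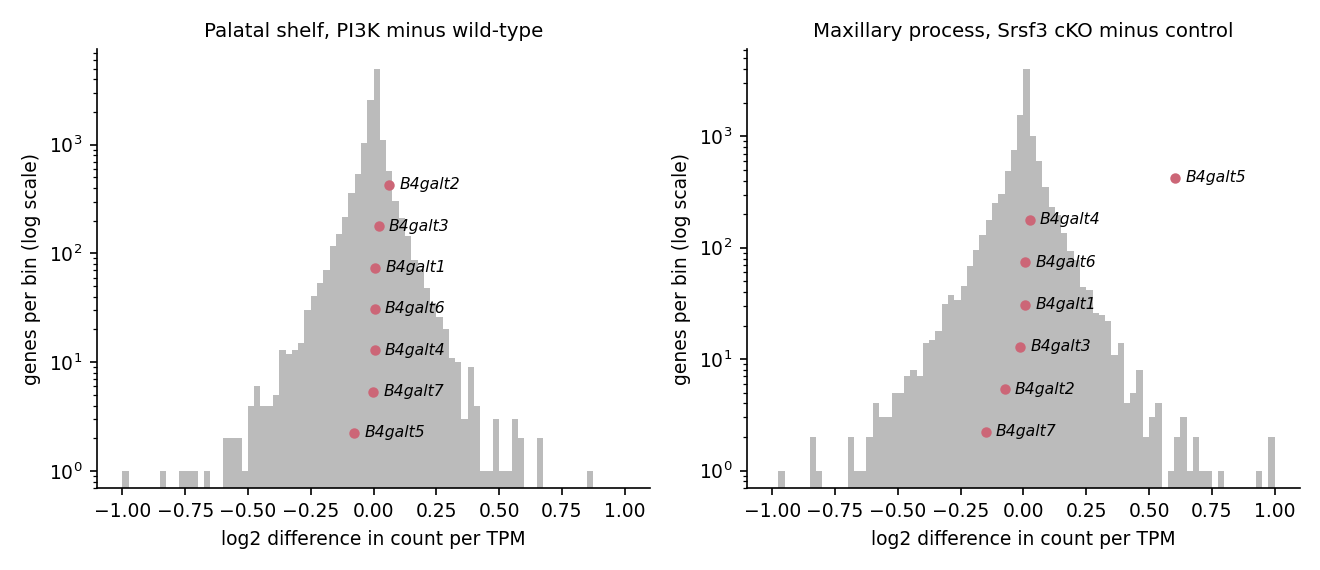
Distribution of the log2 difference in count per TPM over all genes tested (grey bars, log scale, values beyond 1 or -1 placed in the end bins) in the palatal shelf (left) and the maxillary process (right), with the B4galt genes as red points whose height has no meaning. B4galt5 lies at 0.60 on the right, apart from the other 6 members, which lie between -0.15 and 0.025.

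Between the tissues, 3 members were higher in the wild-type palatal shelf than in the maxillary controls, and none was lower. B4galt1 was higher by 0.57 ± 0.15 (log2 difference in counts ± SE, edgeR adjusted p = 0.0095), B4galt5 by 0.55 ± 0.17 (adjusted p = 0.019) and B4galt4 by 0.49 ± 0.14 (adjusted p = 0.016), from a fit on all 12 libraries. The other 4 differed by 0.23 for B4galt2, 0.10 for B4galt3, 0.04 for B4galt6 and 0.25 for B4galt7, with adjusted p-values of 0.080 to 0.84. The 3 of 7 members that passed stand beside 45.3% of 16877 genes, 4248 of the 7642 being higher in the palatal shelf. All 7 members had a positive sign, with a median of 0.25, beside 0.064 over all genes. Tissue, stage, mouse line, sequencing lane and table all change together in this comparison and cannot be told apart. The maxillary controls also entered the value taken to have led to the choice of the family, so these p-values are not independent of it. Several marker sums did not overlap between the wild-type and the controls. Beside the ectoderm markers, they were those of endothelium (191 to 217 against 134 to 146 TPM), macrophages (30.1 to 74.6 against 17.5 to 20.03 TPM), periocular mesenchyme (88.2 to 115 against 14.1 to 33.6 TPM), neurons and glia (29.0 to 37.997 against 43.4 to 157 TPM) and forebrain neuroepithelium (5.55 to 8.05 against 12.5 to 76.6 TPM). Their part in the differences of the members was not tested.

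Each of these calls was lost without some single library. That of B4galt1 was lost without wild-type library 1 (0.36, adjusted p = 0.052), and over 17 other settings its adjusted p ran from 0.0034 to 0.052. That of B4galt4 was lost without wild-type library 2 (0.35, adjusted p = 0.080, range 0.0071 to 0.080). That of B4galt5 was lost without wild-type library 1, wild-type library 3 or control 3 (0.44, 0.53 and 0.45, adjusted p = 0.089, 0.051 and 0.074, range 0.0027 to 0.089). B4galt2 passed with upper-quartile scaling (0.27, adjusted p = 0.043) and without cKO-labelled library 1 (0.23, adjusted p = 0.039).

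Across the 2 genotype comparisons, 0 of 7 members were among the 7 of 16877 genes (0.0415%) whose differences differed past FDR 0.05 by edgeR. The largest difference between the comparisons was that of B4galt4, 0.89 ± 0.20 (log2, maxillary minus palatal comparison, SE). DESeq2 called it, the only member among the 171 of 28446 genes that it called. The values of the other members follow. For B4galt1, B4galt2, B4galt3, B4galt5, B4galt6 and B4galt7 the difference between the comparisons was 0.11, -0.22, -0.08, 0.22, 0.32 and -0.16. Since the maxillary comparison in each value is taken to have led to the choice of the family, nothing is read from these counts.

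The enzymes that work beside the family were followed in 7 lists of 51 genes. In the palatal shelf 48 were tested and 0 passed FDR 0.05 by edgeR, 0 of them at an unadjusted p under 0.05, and 0 by DESeq2. Their median log2 difference was -0.023, beside -0.0076 over all genes, and each gene named here had an edgeR adjusted p of 0.9997. The list of N-glycan branching genes, which build the antennae that B4galt1 to B4galt3 extend, had 2 genes of positive and 7 of negative sign, with -0.12 ± 0.15 (SE) for the mannosidase Man2a1 and -0.11 ± 0.11 for the branching enzyme Mgat5. Gcnt1, which starts core branches on O-glycans, differed by -0.44 ± 0.20, and B3gnt2, which alternates with B4galt enzymes in building polylactosamine chains, by 0.12 ± 0.24. Of the glycosphingolipid genes, which use lactosylceramide, 6 of 7 had a positive sign, with a median of 0.15. Over all 7 lists 20 genes had a positive and 28 a negative sign, beside 48.0% positive over all genes. B3gnt5, which starts the lacto series, differed by 0.82 ± 0.48. It had 37.5, 38.6 and 50.6 CPM in the wild-type and 37.8, 141 and 44.1 CPM in the PI3K libraries, so that PI3K library 2 alone lay above the wild-type. St8sia1, the GD3 synthase, differed by 0.15 ± 0.15. The sialyltransferases St3gal1 and St3gal6 differed by 0.32 ± 0.23 and -0.15 ± 0.25. Csgalnact1 and Csgalnact2, which start chondroitin chains on the linker, differed by 0.40 ± 0.42 and -0.13 ± 0.23. Galt, which makes UDP-galactose, differed by 0.09 ± 0.10. The galectins Lgals9 and Lgals8, which bind galactose, differed by -0.41 ± 0.44 and -0.21 ± 0.14.

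In the maxillary process 45 of these genes were tested. By edgeR 0 passed FDR 0.05. Before adjustment 7 of them (15.6%) had p under 0.05, beside 12.2% of all genes. DESeq2 called St3gal5 and Lgals1, among 376 of 23499 genes. Their median log2 difference was -0.035, beside 0.0041 over all genes. St3gal5, the GM3 synthase that takes the lactosylceramide made by B4galt5 and B4galt6, differed by 0.61 ± 0.14 (SE, edgeR adjusted p = 0.24). B3gnt5 of the same list differed by -0.27 ± 0.18. Lgals1, a galectin, differed by -1.005 ± 0.30 (adjusted p = 0.30) and Galc, the lysosomal galactosylceramidase, by 0.11 ± 0.21. Galk1, which phosphorylates galactose, differed by 0.77 ± 0.28 (adjusted p = 0.36), with 136 CPM in cKO-labelled library 1 against 66.1 and 70.5 CPM in the others and 44.9 to 58.4 CPM in the controls. Among the N-glycan genes, the mannosidase Man2a2 differed by -0.37 ± 0.091 (adjusted p = 0.26) and Mgat2 by 0.28 ± 0.10 (adjusted p = 0.36). B3galt6, which adds the galactose that follows the one of B4galt7 in the proteoglycan linker, differed by -0.19 ± 0.23, and Xylt2, which starts the linker, by 0.17 ± 0.094. Gcnt1 differed by -0.02 ± 0.21, St3gal6 by 0.33 ± 0.21 and St3gal1 by 0.31 ± 0.23. Between the tissues 30 of 49 tested genes of the lists passed, 26 higher and 4 lower in the wild-type palatal shelf, beside the 45.3% of all genes. In count per TPM none of the 45 palatal and 38 maxillary genes of the lists passed by limma. Before adjustment 1 (2.22%) and 2 (5.26%) had p under 0.05, beside 3.90% and 5.16% of all genes.

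The genes whose normalised counts ran most like each member were sought over the 12 libraries, with each tissue centred on its own mean, among 10601 genes. Pearson's r was 0.94 for B4galt1 with Lman1, 0.96 for B4galt2 with Prr14, 0.92 for B4galt3 with Ripk2, 0.96 for B4galt4 with Phlda1, 0.94 for B4galt5 with Klf2, 0.96 for B4galt6 with Trak2 and 0.93 for B4galt7 with Helb. No member was among the 3 most alike genes of another. The highest of 10601 correlations over 12 points is high for any gene, and these libraries share their preparation, their depth and the genotype differences, so the values are a description.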

How the data were processed

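RNA-seq tables of 12 libraries were used, 2 per tissue. The deposited estimated counts and the deposited TPM values (53392 versioned Ensembl gene identifiers) were made by the authors; the submitters' processing notes name STAR 2.7.0, Salmon 1.1.0, DESeq2 1.28.1 and build mm10, with no role or transcript index given. Symbols, lengths and sequences came from GENCODE M21 (GRCm38). Without their version, 53355 identifiers had a symbol, and 52175 were there with the same version. Of the columns, 0 lacked a sample. No protein sequence was used here.

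Rounded estimated counts went into edgeR 4.0.16 under R 4.3.3 (quasi-likelihood F-test, TMM, default filter on low counts, Benjamini-Hochberg over all genes, FDR 0.05), each tissue on its own 6 libraries, or all 12 for differences between tissues or comparisons. All 7 members passed the filter. Count per TPM (log2, centred on the median gene, at least 50 counts in all 6 libraries) was tested with limma 3.58.1. Both were tested on simulated data. Standard errors of counts come from the F statistic. The members, gene lists and tests were chosen with earlier results of these data known. Named were the members, Srsf3, Pdgfra, of each list the genes past FDR 0.05 or else the 2 with the largest difference at 5 CPM or more, and for each member up to 3 most alike genes; a gene that this rule names in the lists is not reported here. The libraries were not treated as paired by replicate number in the main tests. Alternatives were other scalings and filters, DESeq2 1.42.0, limma on log2 TPM, the replicate number as a block and leaving out each library.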

Additional observations from a re-analysis of the deposited data

Results flagged for a closer look

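B4galt4 was flagged because the 2 genotype comparisons lay in opposite directions: all 3 PI3K libraries were below all 3 wild-type libraries (19.7, 16.7 and 20.0 against 20.5, 26.0 and 21.8 CPM), and all 3 libraries labelled Srsf3 cKO were above all 3 controls (27.8, 20.7 and 21.5 against 15.3, 15.3 and 15.2 CPM). In either direction, the groups of 6.23% of 16525 genes in the palatal shelf did not overlap, and of 18.1% of 14254 genes in the maxillary process. The share of genes with such groups in opposite directions was not computed, so how rare this pattern is remains unknown. The difference between the comparisons was 0.89 on the log2 scale. Among all genes, edgeR did not call this difference for B4galt4 and DESeq2 did. No p is given, because the maxillary comparison is taken to have led to the choice of the family.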

How the results depend on the processing

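The short B4galt5 RNA rests on 11.1 to 20.7 estimated counts per control. DESeq2 called B4galt4 in the maxillary process, and no other alternative called a member there in counts. The cause of the changes below was not tested.

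In the palatal shelf, 0 genes passed in counts, against 4 by DESeq2 and 1 by limma on log2(TPM + 1) and 1 on log2(TPM + 0.1). In the maxillary process 12 passed, against 143 with no filter, 376 by DESeq2, 7 on log2(TPM + 1), 105 in a fit on all 12 libraries, and 2 to 29 leaving out a library (29 without cKO-labelled library 1, 2 without control 2). For the difference between the comparisons 7 passed, against 64 with no filter, 171 by DESeq2 and 4 to 26 leaving out a library (26 without cKO-labelled library 1). Of count per TPM, 1 passed in each tissue. In the palatal shelf, leaving out a library gave 0 to 1. In the maxillary process it was 3 at a minimum of 10 counts, 0 without centring and 0 to 5 leaving out a library.

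With the replicate number as a block, 40 genes passed in maxillary counts, 0 in palatal and 0 in maxillary count per TPM; no member was called. Same-numbered libraries correlated at 0.53, 0.22 and -0.22 in the palatal shelf and 0.080, 0.11 and 0.23 in the maxillary process. Different-numbered ones correlated at -0.57 to 0.40 and -0.23 to 0.14. With so few libraries, these values do not settle whether the numbers pair them.

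Some small differences turned sign. Leaving out a library gave palatal count differences of -0.159 to 0.17 for B4galt1, with 0.077 among them, and -0.225 to 0.12 for B4galt5, with 0.035 among them, and -0.043 to 0.0543 for B4galt6 between tissues. In palatal count per TPM, no centring gave -0.0079 for B4galt1, -0.010 for B4galt4 and -0.0099 for B4galt6. Leaving out a library gave -0.0013 to 0.053 for B4galt3, -0.187 to 0.016 for B4galt5, -0.00016 to 0.0113 for B4galt6 and -0.0474 to 0.030 for B4galt7. The maxillary difference of B4galt5 was -0.47 and -0.50 by limma on log2 TPM, against 0.15 in counts; count per TPM differs there.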
